A study of Mus musculus with 7 samples.

Results

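Solute carriers are the membrane proteins, numbered in Slc subfamilies by sequence likeness, that move sugars, amino acids, ions, metals, vitamins, nucleotides and other small solutes across the plasma membrane or the membranes of organelles. A total of 165 Slc genes in 40 subfamilies, out of 33437 oocyte transcripts quantified, were expressed at a mean RPM (reads scaled to the library's mapped reads) of at least 1 over 7 single-oocyte libraries, and they are described here. Members were chosen by their mean RPM over all 7 libraries, both genotypes together, among rows annotated to a gene whose symbol starts with Slc and a number, on the gene's own strand, with the row of highest mean taken where a gene had several. Of 256 such genes, 246 remained without the Slc16 genes, Slc38a4 and Slc22a18, which were left out by name, and 81 of the 246 were under the minimum. Slc19a3 (1.01 RPM), Slc25a42 (1.06) and Slc35g2 (1.08) lay just inside it, whereas Slc6a12 (0.976), Slc12a1 (0.935) and Slc22a21 (0.927) lay just outside. The mean level that selected the members is given as a description only, and the difference between genotypes was not part of the rule. A symbol starting with Slc did not make every member a transporter, as Slc9a3r1 and Slc9a3r2 encode scaffold proteins and Slc7a6os and Slc36a1os are genes named for lying on the strand opposite a carrier gene.

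The libraries were made from single fully grown germinal vesicle (GV) oocytes of 21-day-old C57BL6 females (per the study's methods, a C57BL/6OlaHsd background). There were 4 Setd1b cKO libraries (Setd1b floxed/floxed, Gdf9-Cre positive) and 3 Setd1b WT libraries (Setd1b floxed/floxed, Gdf9-Cre negative) as labelled. The study's methods also allow WT females that carry Gdf9-Cre with 1 deleted and 1 intact Setd1b allele, and whether any of the WT oocytes came from such females cannot be told apart here. Gdf9-Cre is active in oocytes from early folliculogenesis. SETD1B is a methyltransferase that deposits trimethylation on lysine 4 of histone H3 (H3K4me3), and the comparison asks which transcripts differ in level in oocytes that grew without it. The labels do not say which oocytes came from the same mother, so the p-values measure the spread between these oocytes.

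The growing oocyte takes up part of its nutrients through its own carriers and part through gap junctions with the surrounding granulosa cells. Its carriers are known for glycine, betaine and proline uptake, which sets cell volume, for taurine and cystine uptake, for zinc import, which meiotic progression needs, and for the exchange of ADP and ATP across the mitochondrial membrane. Glucose enters the oocyte itself poorly, and much of its energy substrate is delivered as pyruvate by granulosa cells.

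Mapped reads ranged from 8582493 to 12972366 per library, so that 1 read was worth 0.0771 to 0.117 RPM and 3 reads, the upper limit behind a count of 0, 0.231 to 0.350 RPM. These limits cover counting error only, because the reads carry no molecular identifiers. The row spanning Setd1b on chromosome 5 is annotated as Gm26745 and was matched to Setd1b by its span. It had 8.31, 16.7, 12.8 and 2.68 RPM in the cKO and 17.7, 16.3 and 8.61 RPM in the WT libraries (limma adjusted p = 0.533). As 1 value for the whole gene it does not resolve the floxed part and checks nothing about the deletion. All 15 oocyte markers were detected, with a summed level of 22730 to 23460 RPM in cKO and 27920 to 28570 RPM in WT, and 1 of them, Mos, fell. Of 20 granulosa cell markers 16 were in the table, 7 passed the filter on low values and 0 passed the test, with sums of 154 to 184 RPM in cKO and 198 to 230 RPM in WT, most of it Esr2 (86.8 against 148 RPM), while Amh and Foxl2 stood at or near 0. Of the other granulosa markers tested, the means of Nr5a2 (38.8 against 27.8 RPM), Inha (8.07 against 1.71 RPM), Gja1 (2.43 against 1.15 RPM), Fshr (2.39 against 1.5 RPM) and Cyp19a1 (26.6 against 22.8 RPM) were higher in cKO and that of Kitl was lower (5.08 against 5.60 RPM), and the median log2 fold change of the 7 tested was 0.33. Theca and stroma markers summed to at most 1.70 RPM in any library. Of 5 markers of blood and immune cells, Cd68 rose (8.91 against 2.72 RPM) and 3 were at 3 reads or fewer in every library. Reads outside the oocyte transcripts made up 13.2% to 16.4% of mapped reads in cKO and 9.57% to 9.90% in WT. The part of these markers in the results was not tested.

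A total of 8 of the members passed the threshold in Setd1b cKO oocytes, 4 in each direction, and they lay in 8 different subfamilies. Slc2a3 and Slc7a1 were higher, with ratios of the mean RPM of 3.52 and 2.64. Slc1a1 and Slc47a1 were also higher, but no WT oocyte reached 1 RPM for either, so they could be tested only through their level in cKO, and Slc1a1 had 0, 7 and 10 reads in WT. Slc38a6, Slc26a9, Slc9b1 and Slc30a2 were lower, with ratios of 0.237 to 0.367. Past the threshold means an adjusted p under 0.05 (limma, Benjamini-Hochberg over the 18179 genes tested) with a change of more than 2-fold on the log2(RPM + 1) scale. The 8 made up 4.88% of the 164 members tested, and 5.71% of all genes tested passed (3.76% higher and 1.95% lower), so the count was near the general share. Slc1a1 and Slc47a1, tested only through their level in cKO, are counted in it. Of the members, 101 had a log2 fold change above 0 (61.6%, against 60.3% of all genes), and the median was 0.15, against 0.12 over all genes tested. On this log2(RPM + 1) scale, which compresses the ratios of low genes, 122 members (74.4%) were within 1.5-fold, against 71.2% of all genes tested. With the median gene of every library set to a common value, the members' median log2 fold change moved from 0.15 to -0.01. In that setting 2 members rose and 4 fell, and 1 rose and 4 fell after quantile normalisation. With RPM scaled to the reads within transcripts, 7 of the 8 passed again, all but Slc30a2. Slc23a3 and Slc9a9, both higher in cKO, passed as well in that setting.

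**Figure D1:**
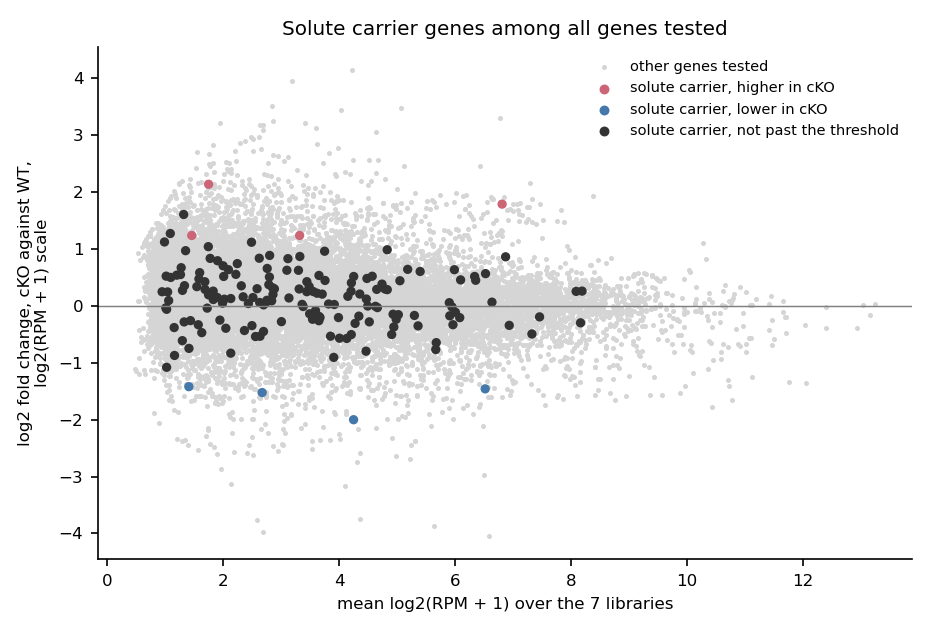
Mean log2(RPM + 1) over the 7 libraries (x axis) against the log2 fold change, cKO against WT, on the log2(RPM + 1) scale (y axis) for the genes tested. Grey points are other genes and larger points the 164 solute carrier members tested, with 4 higher (red) and 4 lower (blue) in cKO. The members lie within the cloud of the other genes over their whole range of levels.

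The upstream 250 bases of 5 of the 8 members past the threshold are shown because H3K4me3 gathers at promoters rich in CG dinucleotides, and these 5 are the ones whose oocyte transcript began within 100 bases of the RefSeq start. The letters are from RefSeq on GRCm38.p6, each 5′ to 3′ on the strand of the gene, with every CG in capitals. They cover chr19:28834885-28835134, plus strand, for Slc1a1, chr5:148399905-148400154, minus strand, for Slc7a1, chr12:73286598-73286847, plus strand, for Slc38a6, chr1:131743772-131744021, plus strand, for Slc26a9, and chr3:135347779-135348028, plus strand, for Slc9b1.
Slc1a1: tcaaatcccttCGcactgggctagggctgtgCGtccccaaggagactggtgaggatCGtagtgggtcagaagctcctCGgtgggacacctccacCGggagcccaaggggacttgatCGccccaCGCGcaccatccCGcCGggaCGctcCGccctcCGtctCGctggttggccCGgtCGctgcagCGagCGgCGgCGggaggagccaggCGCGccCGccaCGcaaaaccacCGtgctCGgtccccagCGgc
Slc7a1: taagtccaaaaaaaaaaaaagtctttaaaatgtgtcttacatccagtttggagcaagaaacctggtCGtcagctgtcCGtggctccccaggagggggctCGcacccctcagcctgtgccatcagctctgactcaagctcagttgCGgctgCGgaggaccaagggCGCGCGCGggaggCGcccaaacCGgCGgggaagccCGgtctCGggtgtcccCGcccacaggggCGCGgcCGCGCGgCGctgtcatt
Slc38a6: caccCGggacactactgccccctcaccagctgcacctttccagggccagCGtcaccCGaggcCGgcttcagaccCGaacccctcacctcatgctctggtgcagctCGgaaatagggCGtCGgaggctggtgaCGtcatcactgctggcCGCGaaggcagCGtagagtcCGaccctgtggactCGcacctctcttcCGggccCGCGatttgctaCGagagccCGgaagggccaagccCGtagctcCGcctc
Slc26a9: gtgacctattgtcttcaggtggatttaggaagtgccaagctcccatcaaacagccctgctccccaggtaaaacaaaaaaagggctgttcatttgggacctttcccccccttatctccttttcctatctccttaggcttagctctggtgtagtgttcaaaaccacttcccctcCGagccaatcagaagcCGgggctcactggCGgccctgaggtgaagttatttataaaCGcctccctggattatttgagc
Slc9b1: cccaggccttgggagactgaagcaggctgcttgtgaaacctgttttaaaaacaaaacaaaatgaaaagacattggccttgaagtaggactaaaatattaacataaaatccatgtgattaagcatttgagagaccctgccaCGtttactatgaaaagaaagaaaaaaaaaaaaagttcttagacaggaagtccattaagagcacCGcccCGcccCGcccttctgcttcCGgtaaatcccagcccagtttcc

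A CG reads the same on both strands, and it occurred 27 times upstream of Slc1a1, 21 times upstream of Slc7a1, 21 times upstream of Slc38a6, 5 times upstream of Slc9b1 and 4 times upstream of Slc26a9. Over all 32851 RefSeq windows of this length the median was 6, and 92.1% held at least 1. Both members that rose were CG rich in this window, and the 3 that fell included a CG-rich window and a pair below the median of all windows. Of the members, 138 had a RefSeq start and 77 had their oocyte transcript end within 100 bases of it. Among those 77 the median was 13 CG, and 54 (70.1%) held 10 or more, against 37.8% of all windows. The 77 were selected for expression and a matched start, whereas the windows cover all RefSeq starts. No background selected in the same way was made, so this is no result about solute carriers. The 5′ end of the oocyte transcript of Slc30a2 lay upstream of the RefSeq start (start offset of -5382 bases), although the transcript ran through the whole gene, and no start was matched for Slc2a3 or Slc47a1.

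Of the members that rose, Slc2a3, the high-affinity facilitative glucose transporter, was the most abundant. It stood at 233, 148, 149 and 252 RPM in the cKO libraries and at 45.5, 48.0 and 72.9 RPM in the WT libraries. All 4 cKO oocytes were above all 3 WT oocytes. The means were 195 ± 54.9 RPM (SD, n = 4) and 55.5 ± 15.1 RPM (SD, n = 3), a ratio of 3.52, with a log2 fold change of 1.79 ± 0.27 (SE), and the adjusted p from limma was 0.00575. The row covered chr6:122726327-122742522 on the minus strand, or 19.9% of a GENCODE gene span that includes distant upstream starts. The increase passed the threshold whichever 1 library was left out, and missed it without a filter on low values (limma adjusted p = 0.0553).

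Slc1a1, the sodium-dependent carrier of glutamate, aspartate and cysteine, rose from levels near the counting limit. It had 10.2, 9.80, 2.96 and 2.33 RPM in cKO against 0, 0.540 and 0.936 RPM in WT, and WT replicate 1 held no read for it, which allows up to 0.243 RPM. The groups did not overlap, and cKO replicates 1 and 2 were well above replicates 3 and 4. The log2 fold change was 2.13 ± 0.48 (SE), and the adjusted p from limma was 0.0268. A transcript on the opposite strand overlapped 20919 bases of it at 5.38 RPM in cKO and 5.97 RPM in WT. Strand use in the counting is not stated, so reads in the shared stretch cannot be assigned to either row. The call was lost without cKO replicate 1 (limma adjusted p = 0.0688), cKO replicate 2 (0.0581), WT replicate 1 (0.115) or WT replicate 2 (0.0986). It was also lost with a pseudocount of 5 RPM (0.0598), without a filter (0.1675), with quantile normalisation (0.0539) and with voom (0.1355).

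Slc7a1, which carries arginine, lysine and ornithine into cells, had 8.61, 17.0, 17.0 and 12.7 RPM in cKO against 3.97, 4.70 and 7.02 RPM in WT. The groups were separate, with cKO replicate 1 the nearest to WT. The means were 13.8 ± 4.01 (SD, n = 4) and 5.23 ± 1.59 RPM (SD, n = 3), with a log2 fold change of 1.23 ± 0.31 (SE), and the adjusted p from limma was 0.0418. The call was lost without cKO replicate 2 (limma adjusted p = 0.0942), cKO replicate 3 (0.119), WT replicate 1 (0.157) or WT replicate 2 (0.154). It was also lost with a pseudocount of 5 RPM (0.0507), without a filter (0.130), with the median gene set equal (0.0584), with quantile normalisation (0.0646) and with voom (0.0518).

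Slc47a1, a proton-coupled exporter of organic cations, had 4.26, 3.21, 2.70 and 1.98 RPM in cKO against 0.324, 0.848 and 0.936 RPM in WT. No WT oocyte reached 1 RPM and every cKO oocyte exceeded it. The log2 fold change was 1.24 ± 0.30 (SE), and the adjusted p from limma was 0.0398, and it fell short of the threshold without any 1 of the libraries except cKO replicate 4, at adjusted p of 0.0600 (without WT replicate 3) to 0.161 (without WT replicate 1). The other libraries gave 0.0911 without cKO replicate 1, 0.0784 without cKO replicate 2, 0.0827 without cKO replicate 3 and 0.113 without WT replicate 2. The call was also lost without a filter (0.109), with the median gene set equal (0.0699), with quantile normalisation (0.1005), with voom (0.0857) and, falling under 2-fold, with a pseudocount of 5 RPM. Slc1a1 and Slc47a1 were among 6 members that passed the filter on low values only through the cKO oocytes, with no WT oocyte at 1 RPM, and the others were Slc6a13, Slc9a9, Slc25a42 and Slc50a1. A gene of this kind had to be higher in cKO to be tested at all. No tested member was the reverse case, with at least 1 RPM in WT oocytes only. The filter asks for 3 libraries, which is 3 of 4 cKO oocytes but all 3 WT oocytes. It thus lets in the reverse case less readily, and these numbers are no result. Slc38a1, which reached 1 RPM in WT oocytes only, was left untested.

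**Figure D2:**
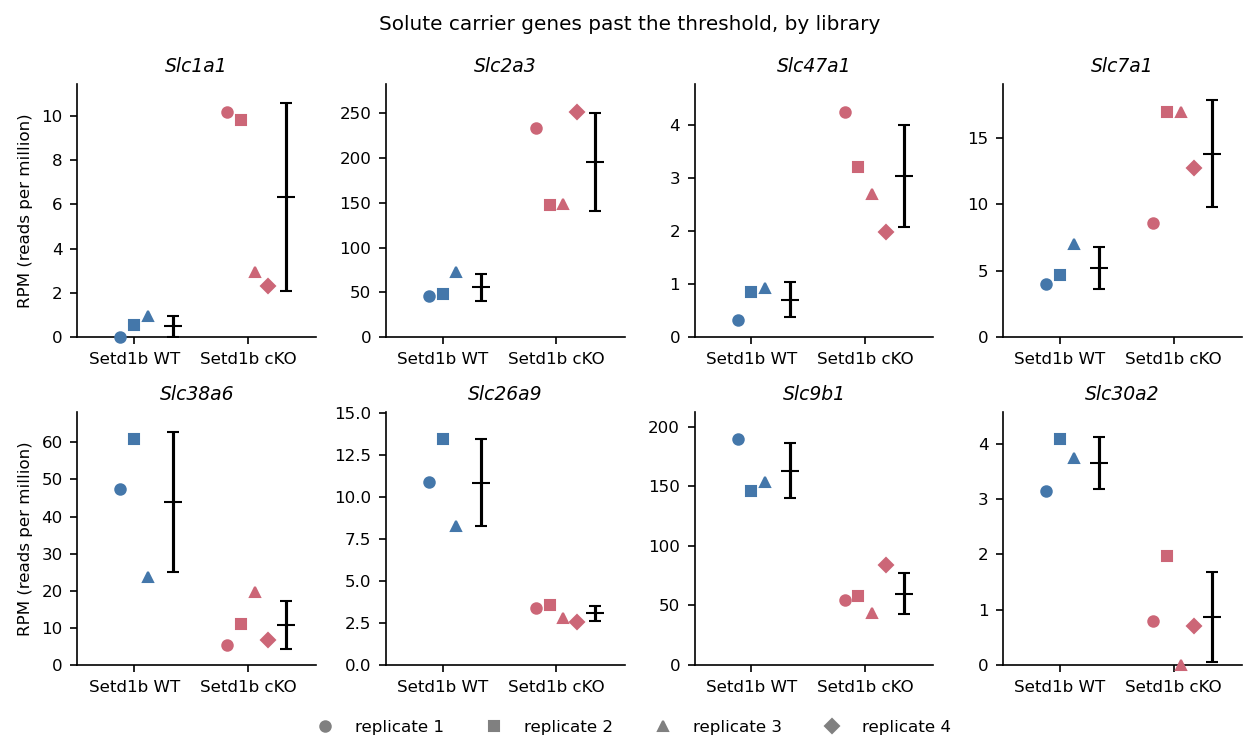
RPM in each library (y axis, linear from 0, scaled per gene) for the 8 solute carrier genes past the threshold, with WT in blue and cKO in red, marker shapes for replicate numbers and black bars for the mean ± SD (n = 3 WT, n = 4 cKO). The upper row shows the genes that rose and the lower row those that fell, and in each of the 8 panels the genotypes do not overlap.

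Slc9b1, a sodium-proton exchanger best known from the sperm cell, was the most abundant member that fell. It had 54.6, 57.7, 43.7 and 83.8 RPM in cKO against 190, 146 and 154 RPM in WT. All cKO oocytes were below all WT oocytes. The means were 59.9 ± 17.0 (SD, n = 4) and 163 ± 23.2 RPM (SD, n = 3), a ratio of 0.367, with a log2 fold change of -1.46 ± 0.25 (SE), and the adjusted p from limma was 0.00883. Per kilobase of the longest annotated mRNA it ranked 5 among the members, at 46.3 RPM per kb over the 7 libraries, so a carrier of high level in these oocytes was among those that fell. Slc9b1 and Slc2a3 were the only members past the threshold in every fit that left out 1 library, and Slc9b1 too missed it without a filter (limma adjusted p = 0.0560).

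Slc26a9, which moves chloride and other anions, had 3.37, 3.54, 2.79 and 2.56 RPM in cKO against 10.9, 13.4 and 8.23 RPM in WT. The cKO libraries lay close together and far below the lowest WT library. The log2 fold change was -1.53 ± 0.27 (SE), and the adjusted p from limma was 0.0109. Gm8532 on the opposite strand overlapped 8612 bases of it at 3.69 RPM in cKO and 1.27 RPM in WT (limma adjusted p = 0.180). The call was lost without WT replicate 1 (adjusted p = 0.0521) or WT replicate 2 (0.0647), and with a pseudocount of 5 RPM the change was under 2-fold (log2 fold change -0.96).

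Slc38a6, of the subfamily of sodium-coupled neutral amino acid carriers, had 5.25, 11.0, 19.8 and 6.76 RPM in cKO against 47.5, 60.8 and 23.6 RPM in WT. The highest cKO oocyte and the lowest WT oocyte were close, at 19.8 and 23.6 RPM. The means were 10.7 ± 6.52 (SD, n = 4) and 44.0 ± 18.9 RPM (SD, n = 3), with a log2 fold change of -2.0 ± 0.44 (SE), and the adjusted p from limma was 0.0239. The row covered the first 45.6% of the gene span and touched Trmt5 on the other strand by 1 base, which did not pass the test (49.6 against 44.5 RPM, log2 fold change 0.14). The call was lost without cKO replicate 1 (adjusted p = 0.0637), WT replicate 1 (0.0972) or WT replicate 2 (0.124), and without a filter (0.1615).

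Slc30a2, a zinc exporter that loads vesicles and is known from the lactating mammary gland, had 0.792, 1.98, 0 and 0.699 RPM in cKO against 3.16, 4.09 and 3.74 RPM in WT. These were 8 and 6 reads in cKO replicates 1 and 4, and 39, 53 and 40 reads in WT, and the 0 in cKO replicate 3 allows up to 0.261 RPM. The log2 fold change was -1.42 ± 0.37 (SE), and the adjusted p from limma was 0.0460. The call was lost without cKO replicate 1 (adjusted p = 0.0928), cKO replicate 3 (0.1001), WT replicate 1 (0.117), WT replicate 2 (0.169) or WT replicate 3 (0.0934). It was also lost with a pseudocount of 0.1 RPM (0.1225), on the deposited log2 scale (0.127), without a filter (0.169), with reads within transcripts (0.0533), with voom (0.103) and, falling under 2-fold, with a pseudocount of 5 RPM.

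Subfamilies 2, 5, 45 and 50, which hold the sugar carriers, had 13 members, of which 1 rose, Slc2a3, and 0 fell (7.69% past the threshold, against 5.71% of all genes), a count near the general share. Not all of them carry sugars, as Slc5a6 carries vitamins and Slc5a8 and Slc5a12 carry monocarboxylates. Their summed level was 284, 206, 203 and 299.7 RPM in cKO and 110, 97.8 and 107 RPM in WT, and Slc2a3 held 72.5% of the sum. Slc2a1, the other main facilitative glucose transporter of early development, had 12.0, 14.5, 11.9 and 6.64 RPM in cKO against 18.6, 13.6 and 7.58 RPM in WT, with overlapping groups and a log2 fold change of -0.19 (95% interval -0.95 to 0.58, limma adjusted p = 0.817). Its sign turned without cKO replicate 4 (0.03) or WT replicate 1 (0.08). The remaining members of subfamily 2, Slc2a9, Slc2a10, Slc2a12 and Slc2a13, did not pass the test, and the median log2 fold change of its 6 members was 0.00.

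Subfamilies 1, 3, 6, 7, 36, 38 and 43, which hold most amino acid carriers, had 26 members, the genes Slc7a6os and Slc36a1os counted among them. Of the 25 tested, 2 rose (Slc1a1 and Slc7a1) and 1 fell (Slc38a6), or 12.0% against 5.71% of all genes. Slc1a1 could be tested only through its level in cKO, so the count gives no support for a change of the class. Their median log2 fold change was 0.02, and their summed level was 631 ± 55.8 RPM in cKO (SD, n = 4) and 564 ± 19.6 RPM in WT (SD, n = 3). Slc38a1 was the member not tested, as it reached 1 RPM in fewer than 3 libraries, with 0.495, 0, 0.174 and 0.816 RPM in cKO and 0.729, 3.08 and 5.43 RPM in WT.

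Among further carriers known for the oocyte's volume and redox state, beside the cysteine carrier Slc1a1 given above, none of Slc6a9, Slc6a20a, Slc6a6 and the chosen row of Slc7a11 passed the threshold. Slc6a9, the glycine transporter, had 32.8, 27.5, 24.4 and 32.7 RPM in cKO against 29.9, 22.4 and 19.5 RPM in WT (log2 fold change 0.30, limma adjusted p = 0.526), and Gm12842 overlapped it on the other strand at 114 RPM in cKO and 105 RPM in WT. Slc6a20a, which carries proline and betaine, had 61.6 ± 9.92 RPM (SD, n = 4) against 66.3 ± 6.14 RPM (SD, n = 3), with opposite-strand transcripts overlapping it over 1204 bases (88.6 and 87.7 RPM) and 1280 bases (18.7 and 24.5 RPM). Slc6a6, the taurine transporter, had 13.3, 13.8, 5.66 and 11.2 RPM in cKO against 27.0, 26.1 and 12.0 RPM in WT (log2 fold change -0.91, 95% interval -1.72 to -0.09, limma adjusted p = 0.179), and WT replicate 3 lay among the cKO oocytes. Slc3a2, the heavy subunit shared by several amino acid exchangers, had 60.2 ± 10.1 against 57.5 ± 5.39 RPM. Slc7a14, a lysosomal carrier of cationic amino acids and the most abundant member of subfamily 7, had 148, 117, 131 and 222 RPM in cKO against 75.5, 74.4 and 98.4 RPM in WT, without overlap between the groups (log2 fold change 0.86, limma adjusted p = 0.0745). The 5′ end of this transcript lay 51925 bases downstream of the RefSeq start, and an opposite-strand transcript covered 11488 bases of it (15.4 and 17.2 RPM).

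Slc7a11, the cystine and glutamate exchanger, had several rows that moved in opposite directions. The row of highest mean, chr3:50011825-50017614, covered 1.05% of the GENCODE span and had 78.5, 82.9, 135 and 154 RPM in cKO against 66.9, 62.2 and 91.5 RPM in WT (log2 fold change 0.56, limma adjusted p = 0.281). The row chr3:50364935-50449491, which holds the RefSeq start on the minus strand, had 61.9, 64.2, 58.6 and 61.5 RPM in cKO against 139, 126 and 90.6 RPM in WT. It was lower in each cKO oocyte than in any WT oocyte (log2 fold change -0.91 ± 0.21, SE, limma adjusted p = 0.0307, under 2-fold). A low row between them, chr3:50214332-50241217, had 6.35 ± 1.52 RPM in cKO and 2.28 ± 0.50 RPM in WT (log2 fold change 1.15, limma adjusted p = 0.0390), and so was past the threshold, higher in cKO. The rows summed gave -0.13. The 5′ end of the row of highest mean lay 425999 bases downstream of the RefSeq start, whereas the row that was lower in each cKO oocyte began near that start. The value of 0.56 thus describes a distant row within the long GENCODE span and cannot stand for Slc7a11. These further rows were looked at after the values were seen.

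Carriers of zinc and manganese, the ZnT exporters of subfamily 30 and the ZIP importers of subfamily 39, comprised 10 members of which 0 rose and 1 fell, Slc30a2 (10% of them, against 5.71% of all genes). With a single gene past the threshold, which 3 WT oocytes and 1 cKO oocyte carried past the filter on low values, the count says nothing about the class. Slc39a10, a plasma membrane zinc importer of the oocyte, had 147, 142, 116 and 146 RPM in cKO against 192, 212 and 178 RPM in WT, in a row whose 5′ end lay 20518 bases downstream of the RefSeq start. All cKO oocytes were below all WT oocytes, yet the log2 fold change of -0.50 ± 0.19 (SE) did not pass the test (limma adjusted p = 0.165). Slc39a6, its close relative and partner, had 86.1, 117, 97.1 and 103 RPM in cKO against 83.5, 112 and 93.7 RPM in WT, a log2 fold change of 0.06 (95% interval -0.39 to 0.52) that turned to -0.09 with the median gene set equal in every library. A transcript on the other strand overlapped Slc39a6 at a mean of 167 RPM. Slc30a3, the vesicular zinc exporter, was the most abundant of the class, at 210.1, 209, 132 and 126 RPM in cKO and 290.1, 178 and 130 RPM in WT, with overlapping groups and an opposite-strand transcript at 73.0 and 62.1 RPM.

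**Figure D3:**
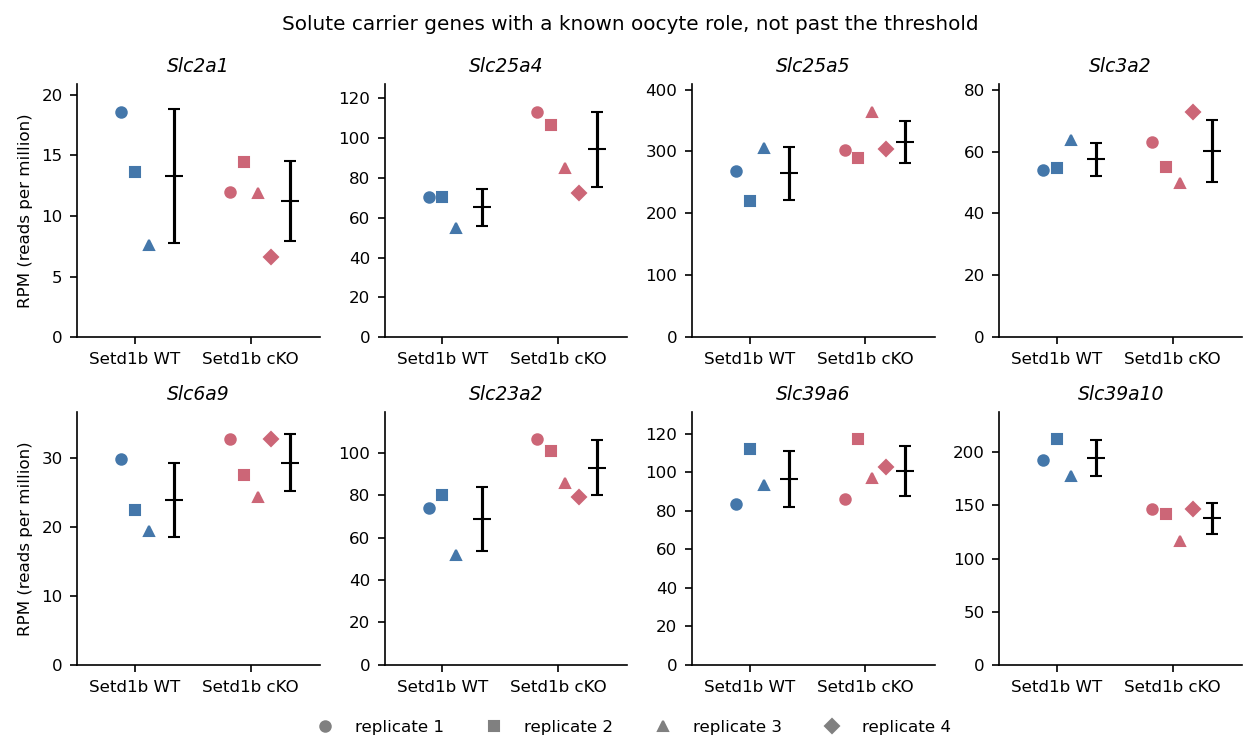
RPM in each library (y axis, linear from 0, scaled per gene) for 8 solute carrier genes with known roles in the oocyte that did not pass the threshold, with WT in blue, cKO in red, marker shapes for replicate numbers and black bars for the mean ± SD (n = 3 WT, n = 4 cKO). Slc25a4 and Slc39a10 do not overlap between genotypes, and the other 6 do.

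Subfamily 25, which exchanges metabolites and nucleotides across the inner mitochondrial membrane, was the largest, with 30 members. None of the 30 passed the threshold, against 5.71% of all genes, and 18 (60.0%) were above 0, against 60.3% of all genes. The share above 0 is near that of all genes, 0 of 30 past the threshold is no result about so small a group, and the median log2 fold change was 0.08. Their summed level was 1300, 1331, 1340 and 960 RPM in cKO against 1250, 1150 and 1034 RPM in WT, so cKO replicate 4 was apart from the other cKO oocytes. Slc25a5, the main ADP and ATP exchanger of dividing cells, had the highest level of all members per kilobase of mRNA (236 RPM per kb) and stood at 302, 289, 364 and 304 RPM in cKO against 268, 220 and 306 RPM in WT (log2 fold change 0.26, 95% interval -0.20 to 0.71). Slc25a4, the ADP and ATP exchanger of heart and muscle, had 113, 107, 85.1 and 72.5 RPM in cKO against 70.5, 70.4 and 54.7 RPM in WT, separate but close, with a log2 fold change of 0.51 (95% interval 0.01 to 1.02, limma adjusted p = 0.219). Slc25a31, the germ cell form, had 153, 169, 133 and 40.9 RPM in cKO against 188, 165 and 86.1 RPM in WT, and its log2 fold change of -0.34 turned to 0.12 without cKO replicate 4. Slc25a17, which belongs to the same subfamily but sits in the peroxisome, came second per kilobase (160 RPM per kb) and had 331, 325, 312 and 216 RPM in cKO against 251, 303 and 192 RPM in WT. The row of Slc25a20, the carnitine carrier, spans a neighbouring gene, Prkar2a, better than its own, so its 28.7 ± 4.24 RPM in cKO and 33.8 ± 2.36 RPM in WT cannot be assigned to Slc25a20 alone.

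Among the ion carriers, sodium-proton and sodium-calcium exchangers (subfamilies 9 and 24) comprised 12 members, the scaffold genes Slc9a3r1 and Slc9a3r2 counted among them, of which 1 fell, Slc9b1 (8.33%, against 5.71% of all genes). Their summed level was 162 ± 22.2 RPM in cKO (SD, n = 4) and 285 ± 41.6 RPM in WT (SD, n = 3), and Slc9b1 held 48.6% of it. The bicarbonate and anion carriers of subfamilies 4 and 26 comprised 8 members, of which 1 fell, Slc26a9 (12.5%, against 5.71%), and 1 gene in either class is no result about it. Slc4a8, a sodium-driven chloride and bicarbonate exchanger, had the highest RPM of all members, at 252, 210, 228 and 383 RPM in cKO against 247, 298 and 451 RPM in WT, although its mRNA is long and it ranked 12 per kilobase. Its groups overlapped, with cKO replicate 4 and WT replicate 3 the highest of their genotypes. Slc4a7, another sodium and bicarbonate carrier, was at 10.8 ± 1.504 against 11.7 ± 3.17 RPM.

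The 17 nucleotide sugar carriers of subfamily 35, which feed glycosylation in the Golgi and endoplasmic reticulum, held no gene past the threshold, where 5.71% of all genes passed, and their log2 fold changes ranged from -0.40 (Slc35f5) to 0.87 (Slc35d2) around a median of 0.12. Carriers of organic ions and vitamins comprised 18 members, of which 1 rose, Slc47a1 (5.56%, near the 5.71% of all genes, and tested only through its level in cKO). Slc23a2, the ascorbate transporter, had 106, 101, 85.8 and 78.9 RPM in cKO against 73.9, 80.2 and 51.6 RPM in WT (log2 fold change 0.45, 95% interval -0.05 to 0.95, limma adjusted p = 0.285). The 6 carriers of phosphate and sulphate, 5 cation-chloride carriers, 5 nucleoside carriers, 5 carriers of other metals and 9 of peptides and lipids held no gene past the threshold, and neither did Slc18b1, the single member left. At 5.71% of all genes past the threshold, 0 in groups this small is no result about them.

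**Figure D4:**
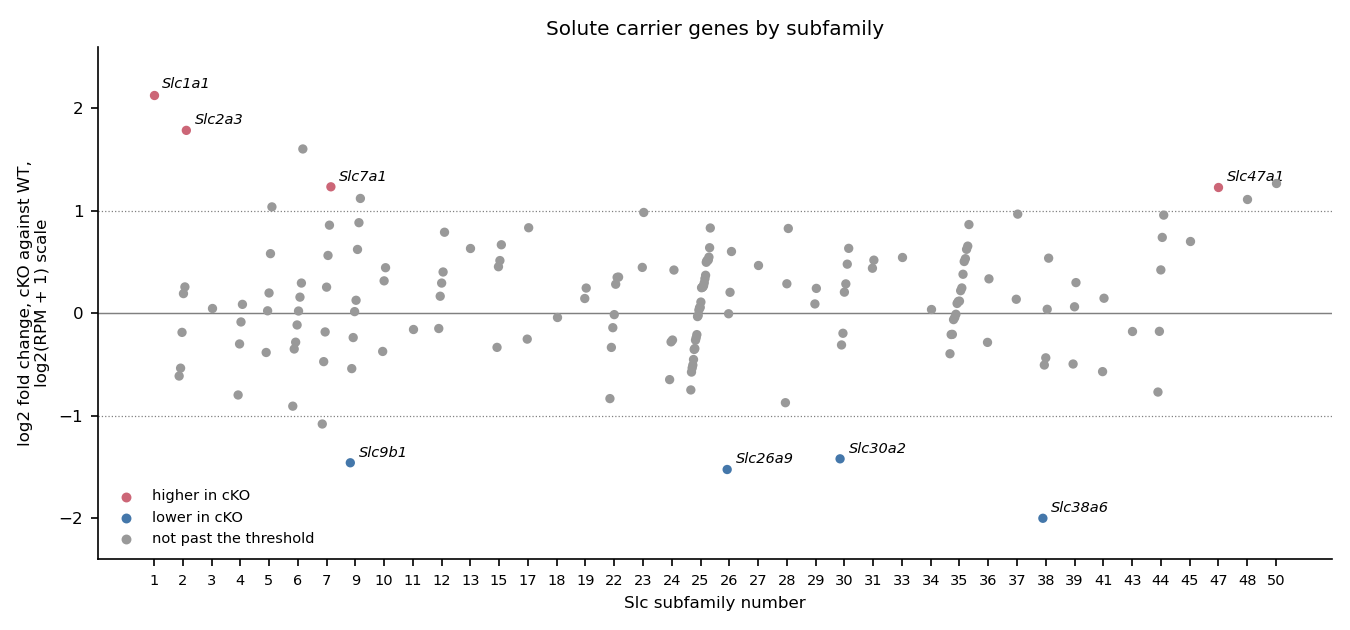
Log2 fold change of each of the 164 members tested, cKO against WT, on the log2(RPM + 1) scale (y axis), by Slc subfamily number (x axis), with genes past the threshold named in red (higher) and blue (lower) and dotted lines at 2-fold. The 8 named genes fall in 8 subfamilies, and the many members of subfamilies 25 and 35 spread around 0 with none past the threshold.

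A further gene named after its values were seen, Slc23a3, a relative of the ascorbate carriers, had an adjusted p under 0.05 but less than a 2-fold change, at 34.3, 34, 37.3 and 43.0 RPM in cKO against 14.3, 25.4 and 16.5 RPM in WT (log2 fold change 0.98, limma adjusted p = 0.0417). It was past the threshold with a pseudocount of 0.1 RPM, on the deposited log2 scale, with reads scaled within transcripts and with voom, so its place under 2-fold depends on the scale. It brought the members with an adjusted p under 0.05 to 9, against 6.15% of all genes. At an unadjusted p under 0.05 there were 33 members (20.1%), against 21.7% of all genes. The genotypes did not overlap in 36 members, 25 higher and 11 lower in cKO (22.0%), against 20.3% of all genes (13.2% higher and 7.14% lower). Named in the same way, Slc48a1, a heme carrier, had 7.42, 8.15, 7.84 and 4.43 RPM in cKO against 3.32, 3.31 and 1.497 RPM in WT (limma adjusted p = 0.0691), and Slc13a1, a sodium and sulphate carrier, had 84.5, 66.4, 78.4 and 73.8 RPM against 46.0, 55.0 and 44.4 RPM (limma adjusted p = 0.0907).

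By level, 52 members had a mean under 4 RPM, 57 at least 16 RPM and 9 at least 100 RPM, and the median was 9.01 RPM. Of the 51 tested members under 4 RPM 3 passed the threshold, of 56 from 4 to 16 RPM 2 did, and of 57 above that 3 did. These were 5.88%, 3.57% and 5.26% of the members in each band, against 4.53%, 6.56% and 6.06% of all genes tested at the same levels. The median log2 fold change was 0.26, 0.15 and -0.01 in these 3 bands, and 0.23, 0.17 and 0.03 over all genes tested in them. The summed level of all members was 4258 ± 258 RPM in cKO (SD, n = 4) and 4085 ± 350.1 RPM in WT (SD, n = 3), so the total spent on solute carriers differed by less than the spread between oocytes. Of the genes listed for a role in the oocyte, Slc1a5 (0.152 RPM) and Slc38a2 (0.109 RPM) were under the minimum, and no row on the gene's own strand carried the names Slc7a5, Slc38a3, Slc4a2 or Slc30a1. In single oocytes a lower level can be less RNA of a gene or a different share of the total, which RPM cannot tell apart.

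Beyond genotype, members differed in common between cKO replicate 4 and WT replicate 3. These 2 libraries had the fewest mapped reads of their genotypes (8582493 and 10688295). They also had the most transcripts with 0 reads (9800 and 10035), and the part of depth or library quality was not tested. In 76 of the 164 members (46.3%) cKO replicate 4 was the lowest cKO library, against 37.4% of all genes tested. In 56 (34.1%) both were the lowest library of their genotype, against 25.2% of all genes tested, and in 19 members (11.6%) both were the highest, against 22.2%. Across the 164 members, which share the library depth and are not independent replicates, the deviation of cKO replicate 4 from the other cKO oocytes and that of WT replicate 3 from the other WT oocytes had a Pearson r of 0.593 (0.608 over all genes tested). In 11 members both deviations were below -1 on the log2(RPM + 1) scale, and in 0 were both above 1 (6.71% and 0%, against 3.64% and 2.06% of all genes tested). Slc44a1, a choline-like transporter, was the furthest of these, with 53.9, 97.9, 109 and 16.5 RPM in cKO and 103, 107 and 22.5 RPM in WT. Slc35a1, which carries CMP-sialic acid, had 34.8, 52.7, 25.3 and 14.7 RPM in cKO and 33.8, 35.0 and 8.61 RPM in WT. These genes were chosen after their values were seen. Correlations of log2(RPM + 1) between libraries over the members were 0.880 to 0.951 within cKO, 0.917 to 0.955 within WT and 0.821 to 0.930 between genotypes, and the highest of the last was between these 2 libraries. Without both of them, an alternative chosen after seeing the data, 8 members rose and 5 fell, and 7 of the 8 members called with all libraries were among them, all but Slc30a2.

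**Figure D5:**
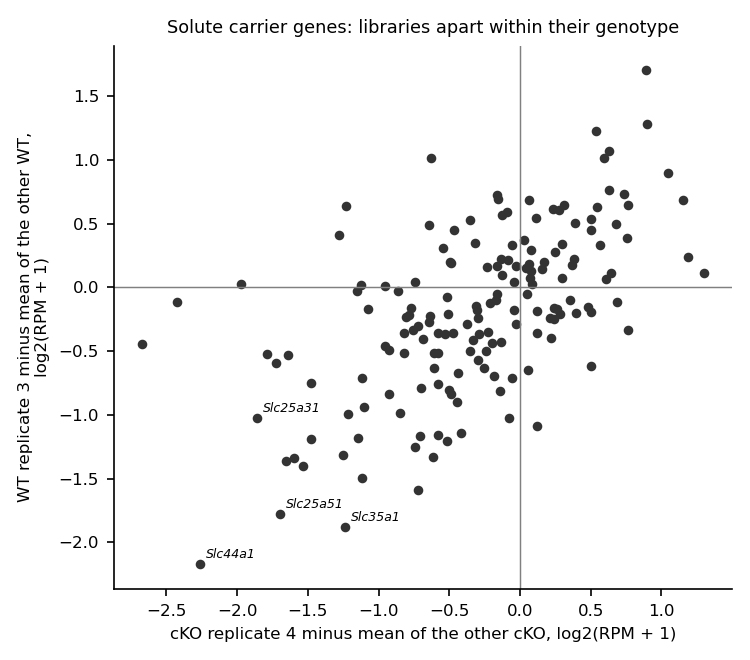
For each of the 164 members tested, the deviation of cKO replicate 4 from the mean of the other cKO libraries (x axis) and of WT replicate 3 from the mean of the other WT libraries (y axis), in log2(RPM + 1). Points fall along the rising diagonal (Pearson r 0.593), and 11 members lie below -1 on both axes, 4 examples being named.

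Other membrane transporters outside the Slc symbols were counted for comparison. Of 41 such genes tested, 1 rose and 4 fell (12.2% called and 9.76% lower, against 5.71% and 1.95% of all genes), with a median log2 fold change of -0.10. Among 9 Slco genes, the organic anion carriers, Slco2b1 rose from 1.87 to 4.80 RPM and Slco1a6 and Slco6b1 fell. Slco6b1 had no read in any of the 4 cKO oocytes and could be tested only through its level in WT, so its fall is a description and no support for the count. Among 27 ABC transporters, which use ATP, 0 rose and Abcb4 (76.5 to 28.3 RPM) and Abcc3 (5.54 to 1.88 RPM) fell. Both were near the limit (limma adjusted p = 0.0492 and 0.0417). The Abcb4 groups overlapped, with cKO replicate 4 at 57.7 RPM and WT replicate 1 at 57.1 RPM. None of the 3 sodium-potassium ATPase subunits or 2 aquaporins tested passed the threshold.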

How the data were processed

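The authors amplified cDNA of single GV oocytes with the SMARTer Ultra Low kit, made libraries with NEBNext reagents and sequenced single 75-base reads, and 1 WT library was not obtained. Per the study's methods, reads were trimmed with trim galore, mapped with Hisat to GRCm38 with known Ensembl splice sites, kept above a mapping quality limit and quantified in SeqMonk over oocyte transcripts defined earlier, with isoforms merged. The submitters' processing notes also name bcl2fastq 1.8.4 and featureCounts 1.4.4. The deposited values are log2 RPM of all mapped reads, with 0.9 read in place of 0, from which whole reads were recovered (at least 99.992% of values within 0.05 read). Per the study's methods the cDNA went into a DNA library preparation, and strand use in counting is not given in the sources used here. Reads in a stretch shared with an opposite-strand row therefore cannot be assigned to either row. Which oocytes share a mother is not given either.

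RPM was computed back from the deposited log2 values, and log2(RPM + 1) was tested with limma 3.58.1 (lmFit, eBayes with trend, two-sided) in R 4.3.3 over the 18179 transcripts that reached 1 RPM in 3 or more libraries, adjusted by Benjamini-Hochberg. The study used DESeq2 on counts, but the deposited unit is not counts. A fold change on this scale understates changes of low genes. Members and lists were chosen with earlier results of these data known, and no test was made over the list. Named were members past the threshold, the 10 of highest mean, members listed for an oocyte role and those next to the minimum, with exceptions marked, and 1 of them is not reported here. All 165 members were matched to GENCODE vM21 by gene ID. Of these, 45 overlapped an opposite-strand transcript of at least 1 RPM, which in 22 was above their own mean, and 154 rows covered at least 50% of the gene span. Alternatives were other pseudocounts, filters, scalings, voom, a replicate block and leaving out libraries. The test was checked on simulated data. Figures were drawn with matplotlib 3.10.9.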

Additional observations from a re-analysis of the deposited data

Results flagged for a closer look

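Of 30 named members examined in the group of 4 cKO oocytes, 2 had 1 library apart from the other 3, and chance gives about 2, since about 1 in 20 such groups is marked. Slc25a17, the peroxisomal carrier, was at 215.7 RPM in cKO replicate 4, with the other cKO oocytes at 312.3 to 331.1 RPM, and the gap took 0.838 of the whole range. Slc39a10, the zinc importer, was at 116.2 RPM in cKO replicate 3, with the others at 141.8 to 146.9 RPM, and the gap took 0.835 of the range. The groups of 3 WT oocytes were too small for this comparison.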

How the results depend on the processing

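Of 594 values of the 30 named members under 20 alternatives, 522 kept their direction and side of the threshold, 49 lost it, 1 gained it (Slc6a6 without cKO replicate 4 and WT replicate 3) and 22 changed sign, in 9 genes. Slc2a3 and Slc9b1 lost the threshold only when genes of low level were not filtered out (adjusted p = 0.0553 and 0.0560). Against 683 genes higher and 355 lower in all, of which 4 and 4 were members, a pseudocount of 5 RPM gave 315 higher, with 1 member higher and 2 lower, and no filter gave 174 and 129, with 0 and 1 members, the larger number of genes tested being part of that alternative. Fewer members were higher with a filter or a member minimum at a mean of 4 RPM (2 in each), with libraries centred on the median gene (2, and 458 higher against 531 lower over all genes), with quantile normalisation (1, and 428 higher against 442 lower) and with voom on recovered reads (2, and 443 higher). Scaling to reads within transcripts gave 836 higher and 310 lower, with Slc23a3 and Slc9a9 gained among the members higher and Slc30a2 lost among those lower. The members' median log2 fold change moved from 0.15 to -0.01 with centring (-0.01007) and with quantile normalisation (-0.006428). Leaving out 1 library gave 171 to 850 genes higher and 109 to 437 lower, with 1 to 6 members higher and 1 to 4 lower, and leaving out both cKO replicate 4 and WT replicate 3 gave 1029 higher and 498 lower, with 8 and 5 members. The causes of these differences were not tested.

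Values that changed sign were small. With centring Slc39a6 was at -0.092 and Slc3a2 at -0.10, on the deposited log2 scale Slc35g2 was at 0.0089, and with its rows summed Slc7a11 was at -0.13. Leaving out libraries gave ranges that crossed 0 for Slc19a3 (-0.15 to 0.49), Slc25a31 (-0.69 to 0.12), Slc2a1 (-0.51 to 0.083), Slc30a3 (-0.46 to 0.11), Slc35g2 (-0.36 to 0.17), Slc39a6 (-0.035 to 0.18), Slc3a2 (-0.042 to 0.14) and Slc4a7 (-0.31 to 0.069). Same-numbered oocytes did not deviate together in every pair (r = 0.192, 0.295 and -0.129). With so few pairs this cannot tell whether they share more than a number, and the labels do not say. With the replicate block 7 members were higher and 4 lower, and Slc25a31 (0.12), Slc2a1 (0.025), Slc35g2 (0.049) and Slc3a2 (-0.042) changed sign, where cKO replicate 4 has no WT partner. A member under 4 RPM rests on few reads, and 3 of 51 such members tested were past the threshold, against 2 of 56 and 3 of 57 at the higher levels.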
